A study of Mus musculus with 14 samples.

Results

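The genes of 9 Krüppel-like factors (KLFs) were followed in mouse embryonic stem (ES) cells that were treated with an mTOR inhibitor, in wild-type (WT) cells and in cells edited in Tet1 and Tet2. The members Klf2, Klf3, Klf4, Klf5, Klf6, Klf9, Klf10, Klf13 and Klf16 were taken by their gene names, 1 gene identifier each, from 54446 gene identifiers in all. Bulk RNA-seq was made from 14 libraries of E14 cells grown in serum and LIF on gelatin without feeder cells. The inhibitor was INK128 (mTORi), which blocks the catalytic site of mTOR, the kinase that couples nutrient supply to growth. There were 2 replicates in each of 7 groups: WT at 0 (untreated control), 24, 72 and 144 h of mTORi, and Tet1/2 double knockout (DKO) at 0 (untreated control), 24 and 72 h. A fixed number of cells was sorted for each library and ERCC spike-in RNA was used, at a step that the study does not state. The DKO line came from a single sorted cell after editing with Cas9 and pairs of guides in Tet1 and in Tet2, so differences of this clone cannot be told apart from those of the genotype.

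KLFs are zinc finger transcription factors that bind GC-rich and CACCC-type sequences through their conserved C-terminal fingers, and the related SP factors bind similar sites. In mouse ES cells KLF2, KLF4 and KLF5 belong to the network of transcription factors that maintains the naive pluripotent state, and Klf4 is a known target of LIF signalling through STAT3. Of the other members, KLF3 represses through CtBP, and KLF9, KLF10, KLF13 and KLF16 can bind the SIN3 corepressor. KLF6 is a broadly expressed factor known as an early-response gene and a tumour suppressor.

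The sequences upstream of Klf2, Klf4 and Klf6 are given because the results below turn on these genes, and each holds at least 1 site of the kind that KLF and SP factors bind. They run from 250 to 51 bases before the RefSeq start, on the strand of the gene, in the GRCm38.p6 (mm10) build. Capitals mark GC boxes (GGGCGG, searched on both strands).

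Klf2, chr8:72318812-72319011, + strand: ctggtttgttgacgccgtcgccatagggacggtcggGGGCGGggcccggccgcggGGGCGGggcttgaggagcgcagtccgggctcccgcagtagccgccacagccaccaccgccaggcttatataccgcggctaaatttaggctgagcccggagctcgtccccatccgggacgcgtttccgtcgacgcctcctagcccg

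Klf4, chr4:55532526-55532725, − strand: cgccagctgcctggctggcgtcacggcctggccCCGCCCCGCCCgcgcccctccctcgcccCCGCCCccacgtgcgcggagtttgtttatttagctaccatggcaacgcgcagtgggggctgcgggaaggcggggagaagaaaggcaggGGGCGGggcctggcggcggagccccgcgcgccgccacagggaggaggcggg

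Klf6, chr13:5861239-5861438, + strand: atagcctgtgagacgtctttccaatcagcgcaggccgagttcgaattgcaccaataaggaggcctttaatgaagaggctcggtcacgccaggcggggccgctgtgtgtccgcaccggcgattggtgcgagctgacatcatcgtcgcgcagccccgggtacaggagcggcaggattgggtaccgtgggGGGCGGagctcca

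RefSeq windows were used for 6 of the 9 members (Klf2, Klf3, Klf4, Klf6, Klf9 and Klf13), and those of Klf5, Klf10 and Klf16 were not analysed here. The window of Klf4 held 4 GC boxes, of which 1 pair overlaps by a base, that of Klf2 held 2 and that of Klf6 held 1. Klf3 had 6 and Klf13 had 1, and no GC box was found in the window of Klf9. A GC box was found in 24.6% of all 32851 windows of the same 200 bases, and 4 or more in 1.77%. The E-box CACGTG, which MYC and the TFE3 family bind, occurred once among the members, 182 bases before the start of Klf4, and in 4.34% of all windows. The STAT motif TTCNNNGAA was in no member window (5.76% of all windows). The KLF motif GGGNGTGG was in the window of Klf13 alone among the members (11.9% of all windows). No GC box overlapped another kind of motif, and a match is a description of the letters only. These windows were dense in CpG, the sites that TET enzymes act on once methylated: Klf2 had 26, Klf4 had 24 and Klf6 had 19 CpG, against a median of 4 over all windows.

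The values were read on 2 scales. The deposited TPM are the share of a gene in the transcripts of its library, per length. The spike-in normalized TPM multiply them by 1 factor per library. They also carry the amount of RNA per sorted cell if the spike-in was added for a fixed number of cells, which the study does not state. Relative to the WT control, the factor was 0.679 to 0.878 at 24 h, 0.706 to 0.783 at 72 h and 0.474 to 0.507 at 144 h. In DKO it was 1.13 to 1.33 at 0 h, 0.643 to 1.06 at 24 h and 0.818 to 1.20 at 72 h, so that replicate 1 lay above replicate 2 by 1.65-fold at 24 h and by 1.47-fold at 72 h. All genes of a library share this factor. Genes were called at an adjusted p below 0.05 from limma on log2(TPM + 1), over 18232 genes with a mean of at least 1, a filter that all 9 members passed. A library held 28306 to 29927 genes above 0. The genes that mark ES cells were high in every library (9 of 9 above 1 TPM, 4950.0 and 5708 deposited TPM in sum in the WT control). Of 7 fibroblast genes 6 were below 1 TPM in every group. Tet2, the gene edited in DKO, was at 210.4 and 203 spike-in normalized TPM in the WT control and at 53.9 and 52.7 in the DKO control, and it was lower in DKO at 0, 24 and 72 h (−1.93, −2.52 and −2.06 on the log2 scale, adjusted p 0.0152, 0.000289 and 0.00228). Tet1 was at 416 and 403 in WT and 427 and 349 in DKO, and the values of a whole gene do not separate edited from intact exons.

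All 9 members were expressed in every library. In the WT control, per length, Klf5 stood highest (389.9 and 358 spike-in normalized TPM in replicates 1 and 2), followed by Klf2 (324 and 299.8), Klf4 (140.2 and 151), Klf9 (122 and 149.6) and Klf3 (128 and 112). Klf10 (78.4 and 99.2), Klf16 (62.9 and 79.2), Klf13 (42.9 and 44.4) and Klf6 (28.9 and 38.7) followed below 100. The libraries of neighbouring genes in this order overlapped for Klf4 and Klf9, for Klf9 and Klf3, and for Klf10 and Klf16. The 3 factors of the naive network together made up 64.8% and 60.7% of the summed level of the 9 members in the 2 WT control libraries. Under mTORi Klf4 moved above Klf2 in the order of group means at every time in both genotypes, while Klf5 stayed highest in all 7 groups.

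**Figure D1:**
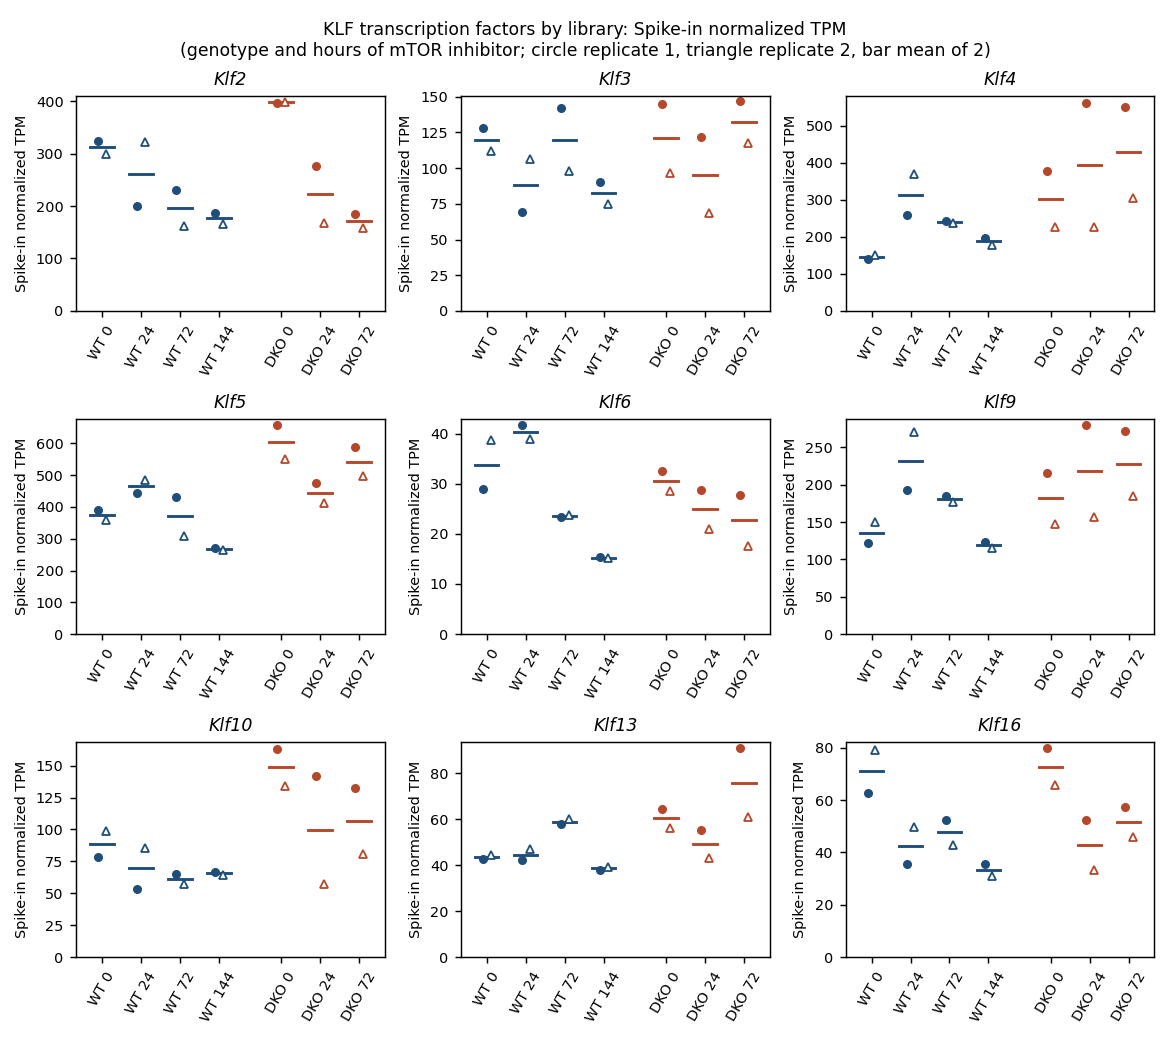
Spike-in normalized TPM (y axis, from 0) of the 9 KLF genes in the 14 libraries, by genotype and hours of mTORi (x axis), with a circle for replicate 1, a triangle for replicate 2 and a bar for their mean. Klf2 steps down from 0 h to the last time in both genotypes, Klf4 lies above its WT control in every treated WT library, and in DKO replicate 1 lies above replicate 2 throughout, apart from Klf2 at 0 h.

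Klf2 was the member whose fall was called most often. In WT it was at 324 and 299.8 spike-in normalized TPM at 0 h, 200.1 and 323 at 24 h, 229.7 and 161 at 72 h and 187 and 167 after 144 h. The DKO libraries were at 397 and 399 at 0 h, 276 and 168 at 24 h and 184 and 157 after 72 h. The libraries at 72 and 144 h in WT, and at 24 and 72 h in DKO, all lay below both of their controls, whereas those of WT at 24 h overlapped them. Klf2 fell in WT at 144 h by 0.82 (SE 0.29) on the log2 scale, in DKO at 24 h by 0.88 (SE 0.29) and in DKO at 72 h by 1.22 (SE 0.29), with adjusted p of 0.0271, 0.0413 and 0.0277 in limma. With the replicate number as a block within each genotype it also fell in WT at 72 h (−0.69, adjusted p 0.0445, against 0.142 without the block). Leaving out any 1 library of WT at 0 or 144 h ended the call at WT 144 h (adjusted p 0.0761 to 0.148, −0.90 to −0.74 on the log2 scale). Leaving out any 1 library of DKO at 0 or 72 h ended that at DKO 72 h (adjusted p 0.0592 to 0.196, −1.33 to −1.10). The call at DKO 24 h was lost without any 1 library of WT at 0 or 144 h, of DKO at 0 h, or DKO 24 h replicate 2, without which the value was −0.52. Without the filter on low values Klf2 was called in none of these 3 comparisons (adjusted p 0.0860, 0.118 and 0.0837), and in the fit of the compared groups alone it was not called at DKO 24 h (adjusted p 0.278).

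On the deposited scale these falls did not look alike. At WT 144 h the share of Klf2 was 174 and 167 deposited TPM, against 153 and 142 at 0 h, a difference of 0.21 (SE 0.15, adjusted p 0.345), and its change on the spike-in scale lay at the median of all genes (−0.82 against −0.83). In DKO the share went from 141 and 168 deposited TPM at 0 h to 124 and 124 at 24 h and 72.8 and 91.0 after 72 h. At 72 h both treated libraries were far below both controls, and the share of Klf2 fell by 0.91 (SE 0.15, adjusted p 0.00282). Of all tested genes 3.08% had a lower change on the spike-in scale there. Klf2 was the only member called in the same direction on both scales in any of the 11 comparisons, in the fits of all libraries without the block. The response of Klf2 in DKO minus that in WT at 72 h was −0.53 (SE 0.42, adjusted p 1.0) on the spike-in scale and −0.64 (SE 0.22, adjusted p 0.999) on the deposited scale, so a difference between the genotypes was not shown.

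Klf4 had the opposite pattern in WT. It was at 140.2 and 151 spike-in normalized TPM at 0 h, 260.2 and 369 at 24 h, 242 and 237 at 72 h and 198 and 178 after 144 h. All 6 treated libraries lay above both controls. In DKO it was at 379 and 228 at 0 h, 561 and 226 at 24 h and 551 and 306 after 72 h, with wide gaps between replicates and overlap with the control at both times. The change in WT at 24 h was 1.08 (SE 0.37, adjusted p 0.0635), and that at 72 h 0.72 (SE 0.37, adjusted p 0.223). Both passed the threshold with the block within each genotype (adjusted p 0.00121 and 0.0200) and in a fit of the compared groups alone, and the first also without DKO 0 h replicate 1 or either DKO 24 h library, which enter through the shared spread. At 144 h the change of 0.37 was not called (adjusted p 0.403), but was in the fit of the compared groups alone (adjusted p 0.0215).

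As a share of transcripts, Klf4 rose in all 5 comparisons with 0 h. In WT it went from 66.4 and 71.5 deposited TPM to 181 and 199 at 24 h, 147 and 159 at 72 h and 185 and 178 after 144 h, rises of 1.45 (SE 0.19), 1.14 (SE 0.19) and 1.39 (SE 0.19) on the log2 scale, with adjusted p between 0.000529 and 0.00273. In DKO it went from 135 and 96.0 deposited TPM to 251 and 166 at 24 h and 218 and 177 after 72 h, rises of 0.84 (SE 0.19, adjusted p 0.0108) and 0.78 (SE 0.19, adjusted p 0.0160). The treated DKO libraries lay above both controls at both times. The DKO control of Klf4 was itself above the WT control in both libraries on both scales, by 1.01 (SE 0.37) on the spike-in scale, a difference that was not called (adjusted p 0.493).

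Klf5, the highest member, was not called from 0 h on the spike-in scale in the fit of all libraries without the block. In WT it was at 389.9 and 358 spike-in normalized TPM at 0 h, 444 and 486 at 24 h, 432 and 308 at 72 h and 270.4 and 265 after 144 h. The DKO values were at 658 and 550.0, 474 and 412 and 588 and 497 at 0, 24 and 72 h. At 24 h both WT libraries lay above their controls and both DKO libraries below theirs on this scale. On the deposited scale the DKO libraries at 24 h (212 and 303) lay on either side of their controls (234 and 232), a difference of 0.13 (adjusted p 0.655). With the block Klf5 fell at WT 144 h (−0.48, adjusted p 0.0478), as it did in a fit of the compared groups alone. As a share of transcripts Klf5 rose in WT at 24 h, from 185 and 169.6 to 309.9 and 262 deposited TPM, and at 144 h, to 253 and 265 (0.68 and 0.54, adjusted p 0.0140 and 0.0415). With the block within each genotype its share was also called higher at WT 72 h.

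Klf3 was at 128 and 112 spike-in normalized TPM in the WT control, 69.2 and 107 at 24 h, 142 and 97.8 at 72 h and 90.1 and 74.6 after 144 h. Its DKO libraries were at 145 and 96.6, 122 and 68.5 and 147 and 117 at 0, 24 and 72 h, and the treated overlapped the control at both times. On the spike-in scale none of its changes was called in the fit of all libraries, while that of the compared groups alone called it lower at WT 144 h (−0.54, adjusted p 0.0119). Its share was called higher at WT 144 h (0.48, adjusted p 0.0485) and not at WT 72 h (0.40, adjusted p 0.0947), and the difference between these times was not called (0.077, adjusted p 0.920). Klf3 overlaps Gm20033 on the opposite strand and C230096K16Rik on the same strand, whose reads could be shared with it.

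Among the factors that can bind SIN3, the shares of Klf9 and Klf16 moved in opposite directions at WT 24 h. Klf9, known as a gene induced by glucocorticoid and thyroid hormones, was at 122 and 149.6 spike-in normalized TPM in WT at 0 h, 193 and 270.1 at 24 h, 184 and 177 at 72 h and 124 and 115 after 144 h. It was above both controls at 24 and 72 h and overlapped them at 144 h. In DKO its level was at 216 and 148, 280.1 and 156 and 272 and 185 at 0, 24 and 72 h, with overlap throughout. The change at WT 24 h was 0.75 (SE 0.31, adjusted p 0.120) and passed the threshold with the block (adjusted p 0.0113), in a fit of the compared groups alone and without either DKO 24 h library. As a share Klf9 rose in all 5 comparisons with 0 h. Its deposited TPM were 57.7 and 70.8, 135 and 146, 112 and 119 and 116 and 115 at the 4 WT times and 76.7 and 62.3, 125 and 115 and 107 and 107 at the 3 DKO times. The rises lay between 0.62 at DKO 72 h and 1.12 at WT 24 h, and no treated library overlapped its control. Mir1192, on the same strand, lies within Klf9.

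Klf16 was at 62.9 and 79.2 spike-in normalized TPM in WT at 0 h, 35.4 and 49.6 at 24 h, 52.5 and 42.7 at 72 h and 35.6 and 31.2 after 144 h. In DKO it was at 79.8 and 65.7, 52.5 and 33.4 and 57.2 and 45.9 at 0, 24 and 72 h. All 10 treated libraries lay below both controls of their genotype. It fell in WT at 144 h by 1.06 (SE 0.30, adjusted p 0.00775), a call lost without WT 0 h replicate 2 (0.0937) or WT 144 h replicate 2 (0.0773). With the block within each genotype it also fell in WT at 24 h (−0.74, adjusted p 0.0194, against 0.118 without it, and called also without either DKO 24 h library) and in DKO at 24 h (−0.78, adjusted p 0.0107, against 0.0725). Its share fell at WT 24 h, from 29.8 and 37.5 to 24.7 and 26.8 deposited TPM (−0.37, adjusted p 0.0428). At WT 144 h the share was at 33.3 and 31.2, within its control range (−0.051, adjusted p 0.784).

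Klf13 was at 42.9 and 44.4 spike-in normalized TPM in WT at 0 h, 42.2 and 47.1 at 24 h, 58.0 and 59.9 at 72 h and 38.1 and 39.2 after 144 h, and at 64.5 and 56.4, 55.3 and 43.0 and 91.0 and 60.8 at 0, 24 and 72 h in DKO. No change from 0 h was called on this scale. With the block it fell between WT 72 and 144 h (−0.60, adjusted p 0.0471, against 0.262 without it). Its share rose in WT at 24, 72 and 144 h (0.39, 0.83 and 0.82, adjusted p 0.0375, 0.00140 and 0.00128) and in DKO at 72 h (0.59, adjusted p 0.00793). Klf13 has E030018B13Rik and Gm27252 on the opposite strand, at most 0.631 spike-in normalized TPM.

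Klf10, known as a gene induced early by TGF-beta, was at 78.4 and 99.2 spike-in normalized TPM in WT at 0 h, 53.6 and 85.9 at 24 h, 64.8 and 57.1 at 72 h and 66.6 and 64.5 after 144 h. DKO libraries held it at 163 and 134, 142 and 57.0 and 132 and 81.0 at 0, 24 and 72 h, with the widest gap between replicates at 24 h. With the block it fell at DKO 24 h (−0.71, adjusted p 0.0277, against 0.168 without it). Its share rose at WT 144 h, from 37.2 and 47.0 to 62.3 and 64.5 deposited TPM (0.59, adjusted p 0.0321). The difference of its share between 144 and 72 h was not called (0.70, adjusted p 0.163).

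Klf6 was the lowest member. In WT it was at 28.9 and 38.7 spike-in normalized TPM at 0 h, 41.6 and 39.0 at 24 h, 23.4 and 23.8 at 72 h and 15.4 and 15.1 after 144 h, and the libraries at 72 and 144 h lay below both controls. In DKO it was at 32.5 and 28.5, 28.8 and 21.0 and 27.8 and 17.7 at 0, 24 and 72 h. It fell in WT at 144 h by 1.08 (SE 0.30, adjusted p 0.00770), a call lost without WT 0 h replicate 2 (adjusted p 0.107) or WT 144 h replicate 2 (0.0633). Its share rose at WT 24 h, from 13.7 and 18.3 to 29.0 and 21.0 deposited TPM (0.61, adjusted p 0.0209), and at WT 144 h was at 14.4 and 15.1, within its control range.

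**Figure D2:**
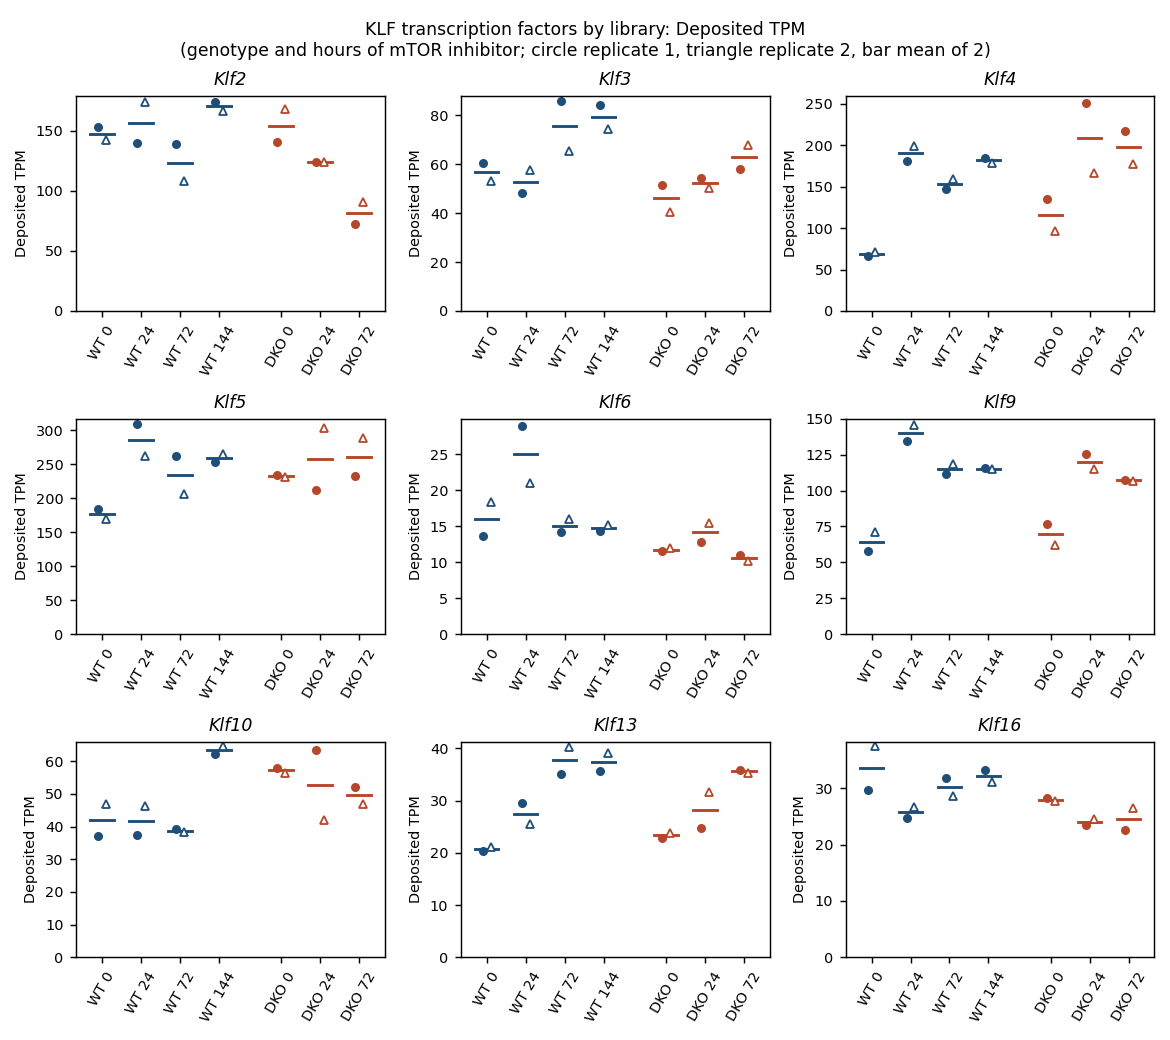
Deposited TPM (y axis, from 0), the share of transcripts, of the 9 KLF genes in the 14 libraries, by genotype and hours of mTORi (x axis), with a circle for replicate 1, a triangle for replicate 2 and a bar for their mean. Klf4 and Klf9 lie above their control in every treated library of both genotypes, and Klf2 is lowest in DKO at 72 h.

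The counts of called members were set against all genes. In WT at 24 h 0 of 9 members were called on the spike-in scale, where 9.98% of all tested genes were called in either direction, and limma gave 3 members an unadjusted p below 0.05. In WT at 72 h 0 of 9 were called, against 8.29% of genes, with 1 at an unadjusted p below 0.05. In WT at 144 h 3 of 9 members were lower (Klf2, Klf6 and Klf16), against 50.5% of all genes, and a difference between these shares was not tested. All tested genes had a median change of −0.33, −0.33 and −0.83 at 24, 72 and 144 h, and the members one of 0.031, −0.035 and −0.48. Of the 9 members 6, 5 and 7 were above the median of all genes at these times. Between WT 144 and 72 h 0 of 9 members were called, against 0.395% of genes, with 1 at an unadjusted p below 0.05. In DKO 1 of 9 was lower at 24 h (Klf2), against 18.7% of genes, and 1 of 9 at 72 h (Klf2), against 2.95% of genes. The smaller amount of RNA on this scale cannot be told apart from a smaller number of cells of a kind that expressed more of it, since whole populations were measured.

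On the deposited scale, where the median of all genes lay between −0.0077 and 0.14 in the 5 comparisons with 0 h, more members were called in each of them, and mostly higher. In WT at 24 h 5 of 9 were higher (Klf4, Klf5, Klf6, Klf9 and Klf13), against 15.8% of genes, and 1 of 9 was lower (Klf16), against 14.1%. At 72 h 3 of 9 were higher (Klf4, Klf9 and Klf13), against 12.6% of genes. At 144 h 6 of 9 were higher (Klf3, Klf4, Klf5, Klf9, Klf10 and Klf13), against 15.6%. In DKO 2 of 9 were higher at 24 h (Klf4 and Klf9), against 11.6% of genes, and 3 of 9 at 72 h (Klf4, Klf9 and Klf13), against 17.2%, with 1 of 9 lower (Klf2), against 9.06%. The 9 members summed to 624 and 631 deposited TPM in the WT control and to 934 and 958 at 24 h, 865 and 781 at 72 h and 957 and 949 after 144 h. In DKO the sums were 758 and 718, 891 and 873 and 809.5 and 850.1 at 0, 24 and 72 h.

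With the block within each genotype on the spike-in scale, 2 of 9 members were higher in WT at 24 h (Klf4 and Klf9), against 4.48% of genes, and 1 of 9 lower (Klf16), against 25.7%. At 72 h 1 of 9 was higher (Klf4), against 2.85%, and 1 of 9 lower (Klf2), against 25.4%. At 144 h 4 of 9 were lower (Klf2, Klf5, Klf6 and Klf16), against 66.3% of genes, and between 144 and 72 h 1 of 9 (Klf13), against 18.5%. In DKO 3 of 9 were lower at 24 h (Klf2, Klf10 and Klf16), against 38.1%, and 1 of 9 at 72 h (Klf2), against 13.2%.

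**Figure D3:**
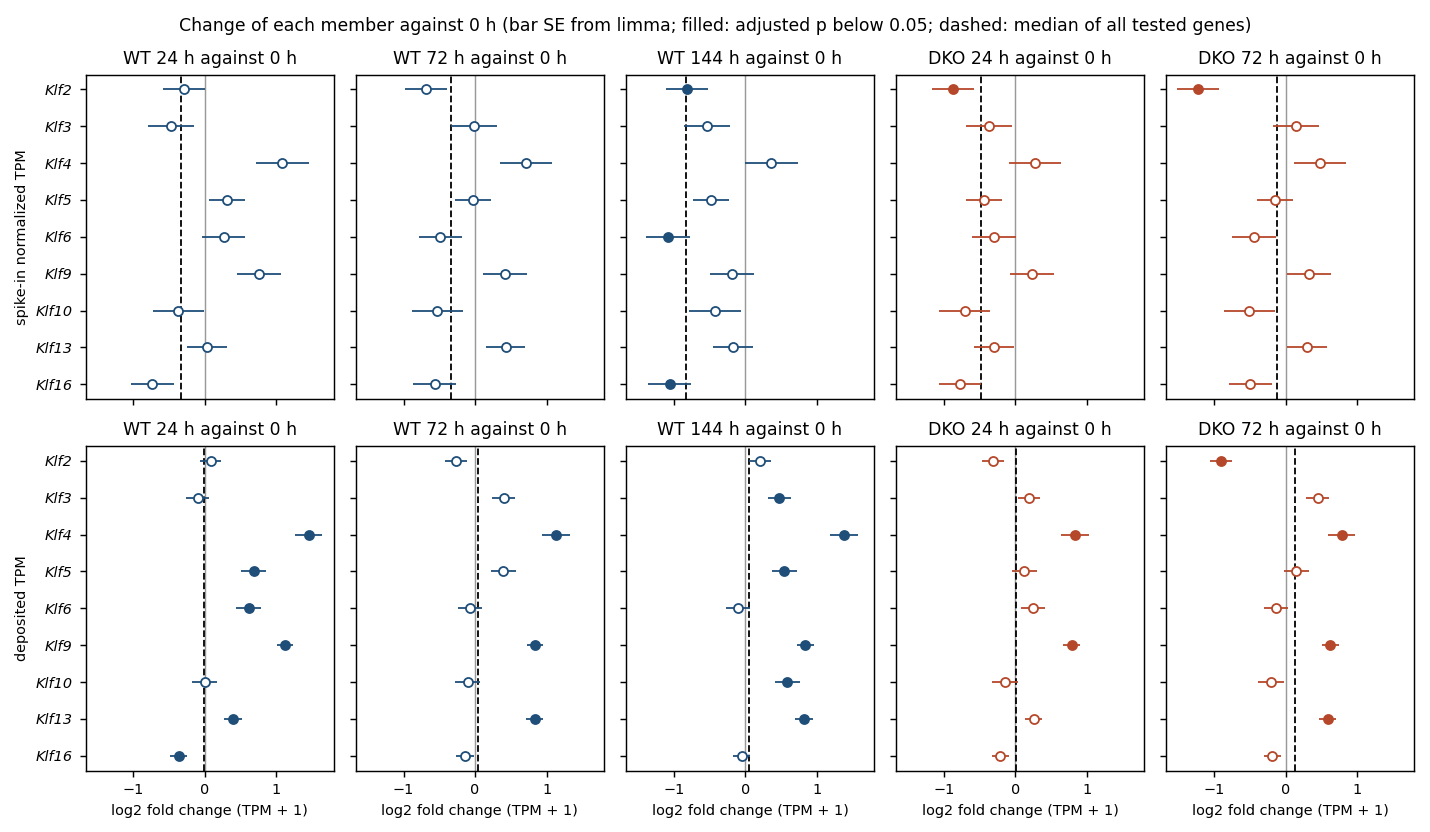
Change of each KLF gene against 0 h (x axis, log2 fold change of TPM + 1, with SE from limma) in the 5 comparisons, on the spike-in scale (top) and the deposited scale (bottom); filled points are called and the dashed line is the median of all tested genes. Klf4 lies to the right of the dashed line in all 10 panels, and the filled points lie to the left of 0 in the top row and mostly to its right in the bottom row.

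The primitive endoderm genes, which mark a cell type that arises in ES cultures, moved with the WT 24 h results. Of 11 such genes, 7 were higher at WT 24 h on the spike-in scale (227 of 18232 tested genes were) and 11 on the deposited scale, among them Gata4 and Gata6. Their summed deposited TPM were 306 and 396 at WT 0 h, 1324 and 1053 at 24 h, 249.9 and 329 at 72 h and 190.4 and 167 after 144 h, and none of the 11 was at 0 in any group. In DKO the sums were 363 and 335, 469 and 497 and 319.6 and 309.6 at 0, 24 and 72 h. In DKO against WT at 24 h 5 of the 11 were lower on the deposited scale, and their response in DKO minus that in WT had a median of −1.41 there and of −1.63 on the spike-in scale, with 0 of 11 above the median of all genes. Their part in the KLF values at 24 h, the differences between the genotypes included, was not tested. Trophectoderm genes summed to 34.6 and 34.2 deposited TPM at WT 0 h and 135 and 47.5 at 24 h. Mesendoderm genes were at 2.08 and 2.91 and 2.21 and 3.01 and neuroectoderm genes at 14.8 and 17.4 and 8.35 and 6.87 at these times. At DKO 72 h the mesendoderm gene T was higher on the spike-in and deposited scales (1.25 and 0.96). Mesendoderm sums were 3.10 and 2.91 deposited TPM there, against 2.06 and 1.89 at DKO 0 h. Of the 9 ES cell genes, Tdgf1 was higher (0.75) and Nanog and Fgf4 lower (−0.85 and −0.82) there on the deposited scale. Of all genes 17.2% were higher and 9.06% lower. Fgf4 was also lower in DKO against WT at 72 h (−0.86). Their part in the KLF values was not tested. At WT 144 h, where the shares of 6 members were higher, the summed primitive endoderm genes were below their controls in both libraries.

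Ratios of 2 members within a library do not depend on the scale, and were taken after the values had been seen. The ratio of Klf4 to Klf2 was 0.433 and 0.504 in the WT control and 1.30 and 1.14 at 24 h, 1.05 and 1.47 at 72 h and 1.06 and 1.07 after 144 h. In DKO the ratio was 0.955 and 0.572 at 0 h, 2.03 and 1.34 at 24 h and 2.99 and 1.95 after 72 h. Thus Klf2 exceeded Klf4 in all 4 control libraries and Klf4 exceeded Klf2 in all 10 treated libraries. The exact two-sided permutation test over libraries gave p = 0.0714 for 6 treated against 2 control libraries in WT and p = 0.133 for 4 against 2 in DKO, each the smallest that permuting the libraries of a genotype without regard to replicate number allows, so 0.05 could not be reached.

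The ratio of Klf5 to Klf2 was 1.20 and 1.19 in the WT control and between 1.45 and 2.22 in the treated WT libraries. The DKO ratio was 1.66 and 1.38 at 0 h, 1.72 and 2.45 at 24 h and 3.19 and 3.16 after 72 h, the 2 libraries at 72 h being the highest of all 14. The ratio of Klf9 to Klf16 was 1.94 and 1.89 in the WT control and 5.45 and 5.44, 3.51 and 4.14 and 3.47 and 3.68 at 24, 72 and 144 h. In DKO the ratio was 2.71 and 2.25, 5.34 and 4.68 and 4.75 and 4.03 at 0, 24 and 72 h. The ratio of Klf13 to Klf16 was 0.682 and 0.561 in the WT control and 0.809 and 0.858 in the DKO control. These 3 ratios were above both controls in 6 of 6 treated WT and 4 of 4 treated DKO libraries, with the same permutation p as for Klf4 to Klf2. The ratio of Klf4 to Klf5 was above both controls in 6 of 6 treated WT and 3 of 4 treated DKO libraries (exact permutation p = 0.0714 and 0.267). Over the 5 ratios in 2 genotypes, 10 relations were computed, and none had an adjusted p below 0.143 after Benjamini-Hochberg.

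**Figure D4:**
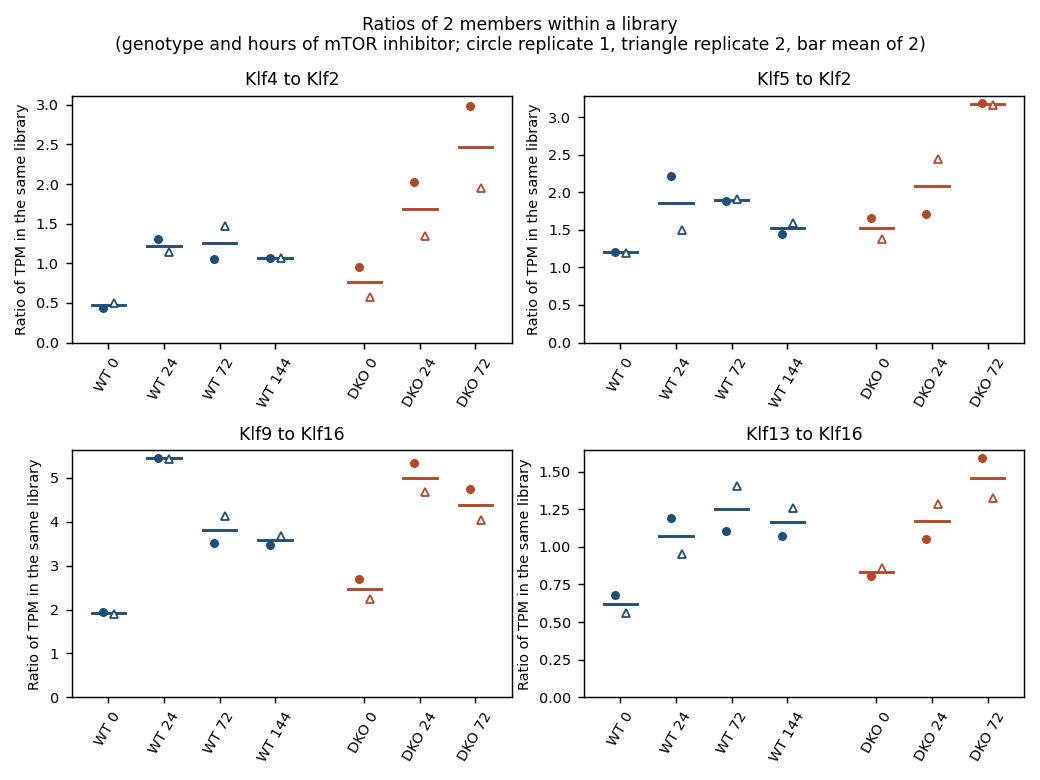
Ratio of the TPM of 2 KLF genes in the same library (y axis, from 0), for 4 pairs, by genotype and hours of mTORi (x axis), with a circle for replicate 1, a triangle for replicate 2 and a bar for their mean. Every treated library lies above both controls of its genotype in each of the 4 panels.

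The DKO cells were compared with WT at equal times. At 0 h 0 of 9 members were called, against 0.0439% of genes, and limma gave 2 members an unadjusted p below 0.05. The largest differences were in Klf4 (1.01, SE 0.37), Klf10 (0.74, SE 0.36) and Klf5 (0.69, SE 0.25), with a median of 0.29 over all genes. For each of these 3 genes both DKO control libraries lay above both WT control libraries, on the deposited scale too. At 24 h 0 of 9 were called, against 0.0439% of genes, with 1 at an unadjusted p below 0.05 (Klf6, −0.69, SE 0.30, adjusted p 1.0). At 72 h 0 of 9 were called, against 0.329% of genes, with 3 at an unadjusted p below 0.05. There Klf4 differed by 0.78 (SE 0.37), Klf10 by 0.76 (SE 0.36), Klf5 by 0.57 (SE 0.25) and Klf2 by −0.18 (SE 0.29), around a median of 0.49 for all genes. On the deposited scale Klf2 was lower in DKO at 72 h in both libraries (72.8 and 91.0 against 139 and 108 deposited TPM), a difference of −0.59 (SE 0.15) that was not called (adjusted p 0.0607).

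The responses of the genotypes were compared as DKO minus WT. At 24 h 0 of 9 members were called, against 0.00548% of genes (1 gene), with 1 member at an unadjusted p below 0.05. At 72 h 0 of 9 were called, against 0% of genes, with 0 members at an unadjusted p below 0.05. At 72 h each of the 9 members was below the median of all genes in this difference (0.21), with values from −0.53 in Klf2 to 0.17 in Klf3. Of the 9 ES cell genes 0 were above this median, and 1 of the 12 other naive network genes described below. Of the 11 other KLF and SP genes 4 were above it. The low position was thus not particular to the members, and all genes share the libraries and factors. At 24 h 7 of 9 were below the median of −0.19, from −0.81 in Klf4 to 0.10 in Klf3. The standard errors of these differences were between 0.36 and 0.52 on the log2 scale, so that only large differences could pass.

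The other genes of the KLF and SP family numbered 17, of which 11 passed the filter, and Klf1, Klf14, Klf17, Sp5, Sp7 and Sp9 had group means below 2 spike-in normalized TPM. Klf12, Klf15 and Klf11 were called higher on the spike-in scale in the fit of all libraries without the block, in which no member was called higher. Klf12, a CtBP-binding repressor like KLF3, was at 34.2 and 23.9 spike-in normalized TPM at WT 0 h and 64.1 and 68.7 at 24 h, a rise of 1.19, and rose also at WT 72 h (1.19), DKO 24 h (1.15) and DKO 72 h (1.41). Klf15, known from glucocorticoid and metabolic responses, rose at WT 24 h (1.46, from 14.4 and 13.2 to 34.4 and 45.9) and WT 72 h (1.21). Klf11, a SIN3-binding relative of KLF10, rose at WT 24 h (1.31, from 23.2 and 23.6 to 49.7 and 71.4). As shares Klf11, Klf12 and Klf15 were higher in all 5 comparisons with 0 h, Klf11 by between 0.73 at DKO 72 h and 1.64 at WT 24 h. On the deposited scale 6 of the 11 were higher at each of WT 24, 72 and 144 h, 5 at DKO 24 h and 6 at DKO 72 h, and 1 was lower in each. Of all genes 15.8%, 12.6% and 15.6% were higher at these WT times, and 11.6% and 17.2% at the DKO times. Of 18232 genes 2563, 2080 and 2134 were lower in WT, and 2426 and 1651 in DKO. Klf8, another CtBP-binding factor, fell at WT 24, 72 and 144 h and at DKO 24 h (−1.0, −1.0, −1.50 and −1.37), from 44.5 and 51.5 to 16.4 and 16.2 in WT. At WT 144 h 4 of the 11 were lower, Sp2 and Sp3 among them (−0.88 and −0.86), against 50.5% of all genes, and Sp8 was higher. Over the 11 genes the median change at WT 24, 72 and 144 h was 0.078, 0.17 and −0.15, against −0.33, −0.33 and −0.83 for all genes.

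The other genes of the naive network were described beside Klf2, Klf4 and Klf5. Of 12 such genes, 0 were higher and 6 lower at WT 144 h on the spike-in scale, led by Nanog (−1.63), Tfcp2l1 (−1.21) and Pou5f1 (−1.02), where 50.5% of all tested genes were lower. The median over the list was −0.75, against −0.83 for all genes. On the deposited scale 4 were higher at WT 24 h, led by Tbx3 (1.22) and Esrrb (0.58), and at WT 144 h 2 were higher, Sox2 and Nr5a2, and 1 lower, Nanog (−0.61). Of all genes 15.8% were higher at WT 24 h, and at WT 144 h 15.6% were higher, close to the share of the list. At DKO 24 h 4 were higher (Tfcp2l1, Esrrb, Sox2 and Nr5a2), against 11.6% of genes, and in DKO against WT at 72 h 1 was lower (Nr0b1, −0.94). In DKO at 72 h Nanog was the one gene of the list called on this scale (−0.85), where Klf2 was lower and Klf4, Klf9 and Klf13 were higher. At WT 72 h Nanog was lower by about as much on this scale (−0.87), and Sox2 was higher (0.36). Klf2 was not called there on this scale. Nanog was also lower at WT 72 h on the spike-in scale (−1.30).

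Of 8 genes from the LIF receptor to STAT3, the pathway upstream of Klf4, 6 were lower at WT 144 h on the spike-in scale, led by Jak1 (−1.23), Jak2 (−1.07) and Socs3 (−1.03), and 0 were called at WT 24 or 72 h. The median over the 8 genes at WT 144 h was −0.93, against −0.83 for all genes, of which 50.5% were lower. As a share 3, 3 and 2 of the 8 were higher at WT 24, 72 and 144 h, against 15.8%, 12.6% and 15.6% of all genes, and 2 at each of DKO 24 and 72 h, against 11.6% and 17.2%. Pim1, a STAT3 target, and Il6st, the shared signalling receptor gp130, were higher at WT 24 h (0.81 and 0.50), 72 h (0.73 and 0.70) and 144 h (0.88 and 0.72). In DKO against WT at 72 h Pim1 was lower (−0.51) and Jak1 higher (0.40) on this scale. Of 6 genes of the ERK5 to MEF2 pathway, known to induce Klf2 in other cells, 2 were lower at WT 144 h on the spike-in scale (Map3k3, −1.20, and Mapk7, which encodes ERK5, −0.70), with a median of −0.54 over the list. As a share 2, 3 and 3 of the 6 were higher at WT 24, 72 and 144 h and 4 at DKO 72 h, against 15.8%, 12.6%, 15.6% and 17.2% of all genes.

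Of 12 genes for KLF cofactors and ubiquitin ligases, 8 were lower at WT 144 h on the spike-in scale, led by Sin3b (−1.36) and Hdac1 (−1.31), a subunit of the SIN3 complex. The median over the list was −0.83, as over all genes, of which 50.5% were lower. Hdac1 was also lower at WT 24 h (−0.91) and DKO 24 h (−1.27). On the deposited scale it was lower at both (−0.54 and −0.70) and at DKO 72 h (−0.51). As shares 3, 4 and 4 of the 12 were higher at WT 24, 72 and 144 h, and 1, 0 and 1 lower. Of all genes 15.8%, 12.6% and 15.6% were higher. The share of Sin3b was higher at WT 24 h (0.42) and lower at 144 h (−0.34). That of Sin3a was higher at WT 72 h (0.32), WT 144 h (0.41) and DKO 72 h (0.36). The acetyltransferase gene Crebbp was higher as a share in all 5 comparisons, between 0.43 at WT 144 h and 0.81 at DKO 24 h. The immediate early genes, which answer handling and growth factors as several KLFs do, were called in both directions: of 16 tested on the deposited scale 3 were higher and 1 lower at WT 24 h, 3 and 2 at WT 72 h, and 4 and 3 at WT 144 h. Of all 18232 genes 2883 were higher and 2563 lower at WT 24 h, 2301 and 2080 at WT 72 h, and 2844 and 2134 at WT 144 h. Zfp36 was higher at WT 72 h (1.42) and 144 h (1.73), and Cyr61 lower at WT 144 h (−1.85).

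For the members called at WT 144 h, the genes most like them were sought among 9252 genes with a mean of at least 10 and a range of group means of at least 1, by Pearson's r of log2 values over the 7 group means. These share libraries and factors and are a description. For Klf2 they were Tcl1 (r = 0.975), Trib3 (0.970) and Abcd4 (0.967), and 87 genes had r over 0.9. Klf6 had 105 genes over 0.9, among them Tpd52 (r = 0.988) and Prex2 (0.974). For Klf16 they were Gm5620, Commd2 and Snx11 (r = 0.997 each), and 2795 genes were over 0.9, so that its pattern is common.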

How the data were processed

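Total RNA of E14 mouse ES cells was sequenced after ribosomal RNA depletion, with 2 replicates in each of 7 groups and 14 libraries in all. The authors used cutadapt 2.4 for adapter and quality trimming, STAR 2.7.3a for alignment to mm10 and StringTie 2.0 for quantification with GENCODE VM19 (versions from the submitters' processing notes). The study's methods give other minor versions of STAR and StringTie. The deposited values are TPM, which have the same sum in each library. No ERCC entry is among them (0 of 54448 to 54458 entries), and depth is unknown because TPM keep no counts, so that no counting interval can be given.

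For the spike-in scale each library's deposited TPM were multiplied by 1 factor, the median ratio, over 482 to 539 genes with at least 1 TPM, of the study's spike-in normalized values, as far as these were at hand, to the deposited TPM. The factors were whole-number fractions, rounded by up to 1.85%. Values were tested as log2(TPM + 1) with limma 3.58.1 (R 4.3.3, empirical Bayes with trend) in 1 fit of all 14 libraries, over the 18232 genes that averaged 1 TPM or more, with Benjamini-Hochberg adjustment over all genes of a comparison and a threshold of 0.05. The script was tested on simulated data. A fold change on this scale understates the change of low genes.

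The study states that the time points of a biological replicate were processed in parallel. The replicate differences correlated across genes above 0.1 in 3 of 3 pairs of groups within DKO and 5 of 6 within WT (the other at 0.0622), and below 0 in 10 of 12 between genotypes. Between genotypes they ran from −0.501 to 0.116, and within WT they reached 0.398. Equal numbers therefore pair libraries within a genotype, where a block was fitted, and not across. A link of opposite numbers across genotypes was not tested. The tests of DKO against WT had no block for it. Promoter windows came from RefSeq (GRCm38.p6). Alternatives were the deposited and median-centred values, a pseudocount of 0.1, no filter, only the groups compared, the blocks, and leaving out each library.

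The members, lists and tests were chosen with earlier results of these data known. Named were the 9 members, Tet genes, up to 4 called genes with the largest change for each list and comparison, and the 3 genes most like each member called at WT 144 h. A gene that this rule names is not reported here.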

Additional observations from a re-analysis of the deposited data

Results flagged for a closer look

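On the spike-in scale at 24 h of mTORi, Klf5 was at 444 and 486 in WT, above both controls (389.9 and 358), and at 474 and 412 in DKO, below both controls (658 and 550.0). The difference of the responses, DKO minus WT, was −0.757 on the log2 scale (SE 0.358, unadjusted p 0.0467 and adjusted p 1.0 over all genes in limma), so it did not pass the threshold. On deposited TPM the difference was −0.56 (SE 0.25), but there the DKO libraries at 24 h (212 and 303) lay on either side of their controls (234 and 232), so the opposite directions hold for the spike-in scale. The primitive endoderm genes differed in the same direction in this comparison (median −1.63 over 11 genes on the spike-in scale and −1.41 on the deposited scale, with 0 called), and their part in it was not tested.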

How the results depend on the processing

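Most calls moved with the scale. On deposited TPM 6, 3, 6, 2 and 4 members were called at WT 24, 72 and 144 h and DKO 24 and 72 h, against 0, 0, 3, 1 and 1 on the spike-in scale. Median-centred values gave 4, 3, 2 and 5 at WT 24 and 72 h and DKO 24 and 72 h, and 1 for DKO against WT at 24 h (Klf6, lower). At WT 144 h they called 3 other members, Klf4, Klf9 and Klf13, higher, and 0 lower. Of 18232 genes, median-centring called 2484 higher and 3122 lower at WT 24 h, 1867 and 2904 at WT 72 h, 2497 and 2778 at WT 144 h, 2051 and 2996 at DKO 24 h, 2096 and 3025 at DKO 72 h, and 78 and 141 for DKO against WT at 24 h. The replicate block within each genotype gave 3, 2, 1 and 3 members at WT 24 h, WT 72 h, WT 144 against 72 h and DKO 24 h. With this block on deposited TPM the counts at WT 24, 72 and 144 h and DKO 24 and 72 h were 6, 4, 6, 2 and 4. Fitting only the groups compared gave 3, 2, 7, 4 and 0 at WT 24, 72 and 144 h, WT 144 against 72 h and DKO 24 h. The 7 were 1 higher (Klf4) and 6 lower, where 12440 of 18232 genes were lower, and the 4 were lower, where 9113 genes were. At the other 3 comparisons this fit called 520 genes higher and 3610 lower, 507 and 4724, and 12 and 519. Without the filter the counts at DKO 24 and 72 h were 0 and 0, and at WT 144 h Klf2 was lost and Klf6 and Klf16 were called. The cause of these changes was not tested beyond the scale itself.

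At WT 144 h the sign turned on deposited TPM, with and without the block, and on median-centred values in Klf2 (0.21 and 0.016), Klf3 (0.48 and 0.30), Klf5 (0.54 and 0.35), Klf9 (0.84 and 0.66), Klf10 (0.59 and 0.41) and Klf13 (0.82 and 0.66). Both scalings shift all genes of a library alike, so these turns follow from the scale and say nothing particular to the members. Of the 74 changes called on neither scale, 24 turned sign on deposited TPM, 22 on median-centred values and 0 with another pseudocount, and 0 to 7 without 1 library (7 without WT 72 h replicate 2, DKO 0 h replicate 2 or DKO 24 h replicate 2, and 0 without either WT 144 h library). The filter, the choice of groups and the block do not enter the fold change itself.

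Leaving out each library in turn gave 0 to 3 members at WT 24 h (3 without either DKO 24 h library), 0 to 3 at WT 144 h, 0 to 3 at DKO 24 h and 0 to 1 at DKO 72 h, and 0 in the other 7 comparisons. These fits were made on the spike-in scale. Among the changes called on either scale, the spike-in sign turned in this way for Klf13 at WT 24 h (−0.046 to 0.11), Klf4 at DKO 24 h (−0.38 to 0.93) and Klf9 at DKO 24 h (−0.19 to 0.64). In the fit of all libraries without the block, these were called on the deposited scale only. There both treated libraries lay above both controls for each. A group left with 1 library was taken to vary like the others. With 2 replicates a group, and with a factor that moves all genes of a library, changes of the members' size were at the limit of what the spike-in scale could call.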
